A study of Mus musculus with 12 samples.

Results

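The heat shock proteins and DnaJ chaperones of mouse liver are described here across 12 liver RNA libraries of the NICD1/Akt model of cholangiocarcinoma (CCA). Members were the protein-coding genes whose symbols open with Hspa, Hspb, Hspd, Hspe, Hsph, Hsp90, Dnaja, Dnajb or Dnajc and a number, and that reached at least 1 CPM (counts per gene scaled to a common library total) in at least 3 of the 12 libraries. Of 21807 genes in the count tables, 72 had such a symbol and 61 of these met the level cutoff, 23 heat shock proteins and 38 DnaJ proteins. The rule used symbols and levels and no value of a group comparison, but it was set with earlier results of these data known. Hspb2 reached the cutoff in 5 NICD1/Akt libraries and in no control, so it is a member only through the condition in which it is high, and its difference between groups is a description. It is also the member nearest to the cutoff, while Hspb7 reached it in 2 and Dnajb13 in 1. The other 9 genes below the cutoff were Dnajb3, Dnajb7, Dnajb8, Dnajc5b, Dnajc5g, Dnajc6, Hspa1l, Hspb3 and Hspb9, and Dnajb8, Dnajc5b, Dnajc5g, Hspb3 and Hspb9 had 0 counts in all 12 libraries.

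Heat shock proteins of the HSP70, HSP90, HSP60 and small classes bind unfolded polypeptides and either hold them soluble or refold them through cycles of ATP hydrolysis. DnaJ proteins carry a J domain that delivers clients to HSP70 and starts its ATPase, and HSP110 proteins reset HSP70 by exchanging its nucleotide. When unfolded protein accumulates in the cytosol, heat shock factor 1 (HSF1) induces a subset of these genes, and the unfolded protein response (UPR) does the same for the chaperones of the endoplasmic reticulum, which in hepatocytes fold a large load of secreted plasma proteins.

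CCA is a cancer of the bile ducts. Here C57BL/6J mice received, by hydrodynamic injection into the tail vein (HTVi), plasmids for the NOTCH1 intracellular domain (NICD1) and for myristoylated AKT (myr-AKT), together with the Sleeping Beauty transposase, which integrates them into hepatocytes of otherwise normal livers. The groups were NICD1/Akt livers 3 weeks after HTVi (libraries 1, 2 and 3) with their controls (10, 11 and 12), and NICD1/Akt livers 2 weeks after HTVi (33, 34 and 35) with their controls (30, 31 and 32). Controls were livers of genotype WT from mice of the same strain that received no injection. Their labels still carry 2 or 3 weeks after injection, taken here to name the stage each control was matched to. The methods give the mice as 5-week-old males at injection. The labels name the NICD1/Akt tissue as liver with CCA tumor, so hepatocytes and tumor cells were measured together, and nothing states how many cells carried the plasmids or that each library came from a separate mouse. P-values therefore measure only the spread between these libraries.

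Library totals were 13136892 to 19594839 counts, and levels are CPM scaled by TMM (trimmed mean of M values) over all 12 libraries unless stated. At 3 weeks the level of Notch1 was 324 to 412 CPM with NICD1/Akt and 42.1 to 45.5 CPM in controls. The library labelled control 32 of 2 weeks stood apart from its group: it had 106 CPM of Notch1, against 49.1 and 53.8 CPM in libraries 30 and 31, and 1875 CPM of Spp1, a cholangiocyte marker, against 56.6 and 53.7 CPM. Ddx3y, a gene of the Y chromosome, had 57.2 CPM in library 32, no more than 0.398 CPM in the 5 remaining early libraries and 52.2 to 126 CPM in the 6 late ones. Sex as read from Ddx3y was thus not balanced between stages and, apart from library 32, cannot be told apart from stage. Library 35 of the early NICD1/Akt livers also stood apart from its group. Its TMM factor was 1.306, against 0.918 and 0.885 in libraries 33 and 34. The chi-square per gene between replicates was 121 and 136 for library 35 against libraries 33 and 34, and 23.3 between those. Where leaving out library 32 changes a call of a member between late and early controls or in the difference between effects, this is stated. In bulk tissue, fewer cells of a type and less RNA per cell cannot be told apart.

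To show the heat shock and UPR elements of these genes in their own sequence, promoter windows of 300 bases (250 before the start to 50 after it) were taken from RefSeq (GRCm38.p6), which held windows for 48 of the 61 members, and 6 windows with a match to an element were chosen. The build behind the deposited counts is not settled, so these coordinates belong to RefSeq alone. The windows of Hspa1a (chr17:34972107-34972406, minus strand) and Hspb8 (chr5:116422815-116423114, minus strand) are shown with 2 neighbouring heat shock element units in capitals (GAA and TTC in either order, with any 2 bases between, both strands). Those of Hsph1 (chr5:149636266-149636565, minus strand) and Hspe1 (chr1:55087898-55088197, plus strand) have 3 such units in a row in capitals (GAA and TTC in alternation, each 2 bases apart, both strands). Those of Hspa5 (chr2:34771840-34772139, plus strand) and Hsp90b1 (chr10:86705395-86705694, minus strand) have the endoplasmic reticulum stress element in capitals (CCAAT, any 9 bases, CCACG, both strands).
Hspa1a: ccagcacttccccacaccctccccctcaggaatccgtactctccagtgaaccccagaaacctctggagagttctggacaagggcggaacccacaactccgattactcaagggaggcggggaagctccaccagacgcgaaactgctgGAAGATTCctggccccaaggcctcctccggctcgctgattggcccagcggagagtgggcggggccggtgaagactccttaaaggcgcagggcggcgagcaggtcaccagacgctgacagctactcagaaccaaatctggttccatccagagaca
Hspb8: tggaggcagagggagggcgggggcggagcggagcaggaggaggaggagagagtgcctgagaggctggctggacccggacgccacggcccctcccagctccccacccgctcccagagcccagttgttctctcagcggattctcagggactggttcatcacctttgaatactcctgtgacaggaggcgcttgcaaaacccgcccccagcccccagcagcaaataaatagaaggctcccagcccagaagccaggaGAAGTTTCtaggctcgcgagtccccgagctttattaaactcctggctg
Hsph1: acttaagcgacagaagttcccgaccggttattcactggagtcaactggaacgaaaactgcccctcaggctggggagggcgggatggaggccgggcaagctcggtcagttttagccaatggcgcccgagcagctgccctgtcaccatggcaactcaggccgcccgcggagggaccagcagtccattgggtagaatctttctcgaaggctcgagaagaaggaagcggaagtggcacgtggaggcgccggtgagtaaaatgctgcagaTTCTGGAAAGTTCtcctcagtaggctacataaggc
Hspe1: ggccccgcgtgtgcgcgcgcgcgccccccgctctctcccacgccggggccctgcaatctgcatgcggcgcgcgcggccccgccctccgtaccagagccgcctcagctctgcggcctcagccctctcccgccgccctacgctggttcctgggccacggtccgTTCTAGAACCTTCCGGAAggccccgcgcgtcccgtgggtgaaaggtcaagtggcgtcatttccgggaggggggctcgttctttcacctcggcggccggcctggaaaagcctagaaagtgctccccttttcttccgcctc
Hspa5: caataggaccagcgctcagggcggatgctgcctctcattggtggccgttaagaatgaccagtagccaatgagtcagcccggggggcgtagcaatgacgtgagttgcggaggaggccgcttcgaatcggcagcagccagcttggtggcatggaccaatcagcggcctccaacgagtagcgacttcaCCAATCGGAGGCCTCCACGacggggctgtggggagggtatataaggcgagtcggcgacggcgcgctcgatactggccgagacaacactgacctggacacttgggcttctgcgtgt
Hsp90b1: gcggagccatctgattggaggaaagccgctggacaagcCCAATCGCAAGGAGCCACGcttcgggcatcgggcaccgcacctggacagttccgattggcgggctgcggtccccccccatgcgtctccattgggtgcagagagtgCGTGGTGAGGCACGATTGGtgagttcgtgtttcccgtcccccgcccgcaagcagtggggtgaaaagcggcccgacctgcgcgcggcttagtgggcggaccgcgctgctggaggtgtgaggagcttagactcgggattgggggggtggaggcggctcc

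The match in Hspa1a lay at -104 from the start, and the window of its neighbour Hspa1b, which differed from it at 4 of 300 positions, had the same match. Hspe1 and Hspd1 stand head to head, so the pair of overlapping matches in the Hspe1 window, at -89 and -84, also lies in that of Hspd1. The 3-unit motif was found in a window of 0.662% of 27025 genes and of 4 of 48 members (8.33%), namely Dnajb6, Hspd1, Hspe1 and Hsph1. The 2-unit motif, which every 3-unit match contains, was found for 17% of genes and 14 of 48 members (29.2%). The endoplasmic reticulum stress element was found for 0.137% of genes and 3 of 48 members (6.25%), namely Dnajc3, Hsp90b1 and Hspa5. Dnajb1 and Dnaja2 were among the members with a window but none of these motifs in it.

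The chaperones were at their highest in the livers of the late controls. Given as the lowest, median and highest library of a group, the 61 members together took 6314, 6725 and 7220 CPM in NICD1/Akt livers of 3 weeks, against 14348, 16953 and 17839 CPM in their controls. At 2 weeks they took 6062, 7120 and 8363 CPM in NICD1/Akt livers, against 6956, 7183 and 7227 CPM in controls. The 3 late controls thus stood above the other 9 libraries, which overlapped. Member by member, the late controls lay above all 9 other libraries for 34 of 61 members (55.7%), against 17.9% of 13829 genes, and below all 9 for Dnajc9 and Hspa12b (3.28%), against 17.1% of genes.

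**Figure D1:**
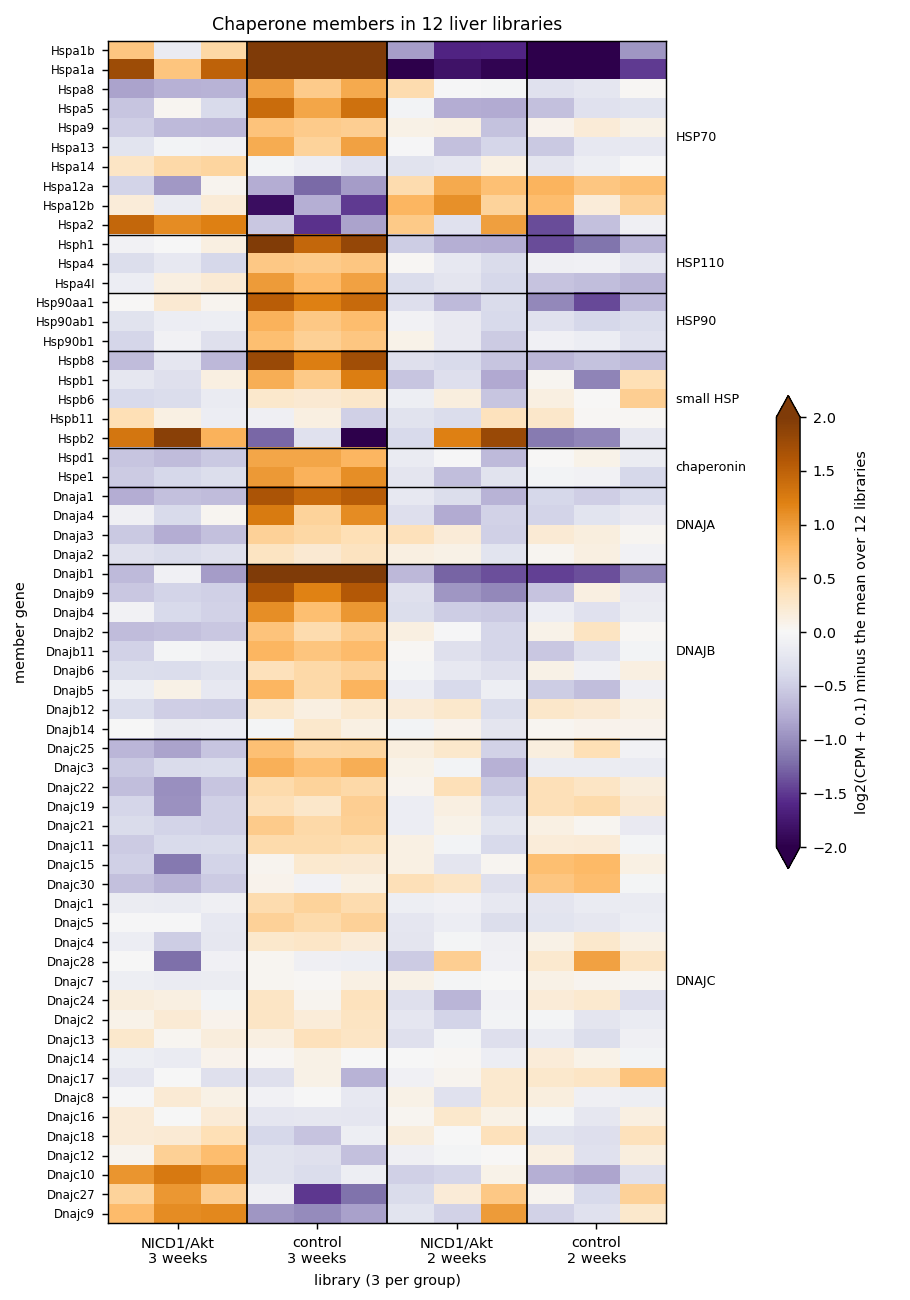
Levels of the 61 members in each of 12 libraries (columns, 3 per group; rows grouped by class and ordered by fold change at 3 weeks), as log2(CPM + 0.1) minus the mean of the gene over 12 libraries, with colours capped at 2 in each direction. The 3 columns of late controls are the orange ones for most rows, and 34 members have all 3 above every other library.

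At 3 weeks, 11 members (10 without Hspb2) were higher and 40 lower in NICD1/Akt livers than in controls at an adjusted p under 0.05 (edgeR quasi-likelihood test), beside 38.9% of 13408 genes higher and 33.1% lower. The median log2 fold change was -0.72 over members and 0.06 over all genes. Of heat shock proteins 4 were higher and 17 lower of 23, and of DnaJ proteins 7 were higher and 23 lower of 38. Scaling by library size alone gave 21 members higher and 19 lower, because it moved the median of all genes to 0.77. Relative to that median the members lay at -0.77 with library size alone and at -0.78 with TMM.

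Between late and early controls, 30 members were higher and 2 lower in the late controls, beside 17.4% of 13829 genes higher and 20.4% lower, and the median log2 difference was 0.41 over members and -0.10 over all genes. Without library 32, 29 members were higher and 4 lower: the calls of Dnajb2 and Dnajc2 were lost, Dnajc10 was higher, and Dnajc15 and Dnajc30 were lower. The other 28 higher and 2 lower calls were the same genes. The comparison of NICD1/Akt livers with late controls and that of late with early controls share the late control libraries, so the values of each are set side by side below and are not independent of each other.

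In the HSP70 family, the stress-inducible genes differed most between late and early controls. Hspa1a and Hspa1b encode the stress-inducible cytosolic HSP70 and are neighbours with 99.6% identical coding sequence (1915 of 1923 aligned bases), so the split of reads between them is uncertain and their sum is given as well. Hspa1a had 27.9, 13.1 and 23.2 CPM in NICD1/Akt livers of 3 weeks, against 123, 80.8 and 112 CPM in their controls. In the early groups it had 1.59, 2.29 and 2.05 CPM in NICD1/Akt livers and 0.865, 0.361 and 2.86 CPM in controls. Late controls were highest, late NICD1/Akt livers came next, and the early groups overlapped at the bottom. Hspa1a was lower in NICD1/Akt livers at 3 weeks by log2 -2.18 (SE 0.27, adjusted p = 1.49e-04). It was higher in late than in early controls by 6.29 (SE 0.54, adjusted p = 2.54e-05) and in late than in early NICD1/Akt livers by 3.43 (adjusted p = 0.00113).

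Hspa1b followed the same order. It had 53.2, 30.4 and 47.3 CPM in NICD1/Akt livers and 359, 261 and 319 CPM in controls at 3 weeks, and 18.5, 10.9 and 11 CPM in NICD1/Akt livers and 3.86, 6.71 and 17.6 CPM in controls at 2 weeks. The log2 fold change at 3 weeks was -2.72 (SE 0.22, adjusted p = 1.45e-05), and the late controls exceeded the early ones by 5.07 (SE 0.52, adjusted p = 6.25e-05). Among early controls, library 32 had the highest value of both genes, and without it the late controls exceeded the early ones by 7.37 for Hspa1a and 5.87 for Hspa1b. The sum of the 2 genes was 81.1, 43.5 and 70.5 CPM in late NICD1/Akt livers against 482, 342 and 431 CPM in late controls, and it did not exceed 20.5 CPM in any library of 2 weeks.

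The abundant HSP70 proteins moved in the same direction at 3 weeks with smaller folds. Hspa8, the constitutive cytosolic HSC70, had 469, 510 and 514 CPM in NICD1/Akt livers against 1637, 1285 and 1587 CPM in controls at 3 weeks (log2 -1.48, SE 0.14, adjusted p = 3.28e-05). At 2 weeks it had 1150, 837 and 830 CPM in NICD1/Akt livers against 695, 727 and 864 CPM in controls, an overlap in which only 1 control library reached the NICD1/Akt values. Hspa8 was lower in late than in early NICD1/Akt livers (log2 -0.92, adjusted p = 0.00532) and higher in late than in early controls (0.98, adjusted p = 0.00191). Hspa5 encodes BiP, the HSP70 of the endoplasmic reticulum, which holds the UPR sensors inactive. It had 782, 1199 and 888 CPM in NICD1/Akt livers against 3079, 2227 and 2957 CPM in controls at 3 weeks (log2 -1.41, SE 0.21, adjusted p = 3.68e-04), and 677 to 1119 CPM in the 6 libraries of 2 weeks. Hspa9, the mitochondrial HSP70, had 324, 287 and 285 CPM in NICD1/Akt livers against 726, 692 and 678 CPM in controls at 3 weeks (log2 -1.11, adjusted p = 4.55e-05), and the late controls differed from the early ones by 0.49 (adjusted p = 0.0512). Hspa13, a microsomal HSP70 relative, was lower by -0.81 (adjusted p = 6.45e-04).

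A minority of the HSP70 family ran the other way. Hspa2, an HSP70 best known from spermatogenesis, had 17.2, 13.8 and 14.7 CPM in NICD1/Akt livers against 4.23, 2.09 and 3.42 CPM in controls at 3 weeks (log2 2.35, SE 0.23, adjusted p = 3.83e-05). Its early values were 9.70, 5.10 and 12.5 CPM against 2.33, 4.04 and 5.87 CPM, a log2 fold change of 1.18 with an unadjusted p of 0.0367 and an adjusted p of 0.520 in edgeR. Hspa14, which acts at the ribosome, had 18.1, 20.2 and 20.9 CPM in NICD1/Akt livers against 14.1, 13.4 and 12 CPM in controls at 3 weeks (0.70, adjusted p = 6.24e-04). All 3 late NICD1/Akt libraries lay above the other 9 for Hspa14. Hspa12a and Hspa12b are distant relatives of HSP70, and Hspa12b is best known from endothelial cells. Hspa12b had 2.08, 1.62 and 2.10 CPM in NICD1/Akt livers against 0.431, 1.04 and 0.583 CPM in controls at 3 weeks (1.60, adjusted p = 0.00344), and 2.09 to 4.0 CPM in the libraries of 2 weeks. Hspa12a differed by 0.71 at 3 weeks (adjusted p = 0.0851). With all 12 libraries these were the only members lower in late than in early controls, by -1.94 for Hspa12b (adjusted p = 0.00169) and -1.75 for Hspa12a (adjusted p = 9.77e-04). Of 4 endothelial markers none passed the threshold between late and early controls, though all 4 lay below 0, at a median of -0.23 beside -0.10 over all genes. The part of endothelial cells in the Hspa12b difference was not tested.

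The nucleotide exchange factors of HSP70 and the HSP90 proteins were lower in NICD1/Akt livers at 3 weeks, 3 of 3 in each class. Of all genes, 33.1% were lower. Hsph1 (HSP105) had 154, 161 and 178 CPM in NICD1/Akt livers against 635, 439 and 572 CPM in controls at 3 weeks, and 114, 96.0 and 94.8 CPM against 61.3, 71.6 and 98.3 CPM at 2 weeks. It was lower by log2 -1.62 at 3 weeks (SE 0.15, adjusted p = 3.52e-05) and higher in late than in early controls by 2.83 (SE 0.20, adjusted p = 1.12e-05). As for Hspa1a, its late NICD1/Akt livers lay above the 6 libraries of 2 weeks and below the late controls. Hspa4l had the same order, with 45.4, 54.5 and 57.4 CPM in NICD1/Akt livers and 100, 83.6 and 96.8 CPM in controls at 3 weeks, and 30.4 to 41.9 CPM at 2 weeks. Hspa4, its constitutive relative, was at 131, 145 and 124 CPM against 256, 252 and 261 CPM at 3 weeks (-0.82, adjusted p = 1.29e-04) and overlapped the range of 128 to 169 CPM of 2 weeks.

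Hsp90aa1, the inducible cytosolic HSP90, had 201, 235 and 209 CPM in NICD1/Akt livers against 583, 465 and 533 CPM in controls at 3 weeks, and 161, 127 and 155 CPM against 97.5, 75.1 and 127 CPM at 2 weeks. The log2 fold change at 3 weeks was -1.17 (SE 0.13, adjusted p = 6.91e-05), and late exceeded early controls by 2.40 (SE 0.20, adjusted p = 1.97e-05). The constitutive Hsp90ab1 was at 1081, 1194 and 1204 CPM against 2337, 2024 and 2171 CPM at 3 weeks (-0.79, adjusted p = 7.31e-04). Hsp90b1, the HSP90 of the endoplasmic reticulum (GRP94), was at 785, 1005 and 853 CPM against 1744, 1540 and 1646 CPM (-0.78, adjusted p = 0.00113). Both lay near their 2-week levels in late NICD1/Akt livers and were higher in late than in early controls, by 1.09 for Hsp90ab1 (adjusted p = 3.73e-04) and 0.81 for Hsp90b1 (adjusted p = 0.00617).

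**Figure D2:**
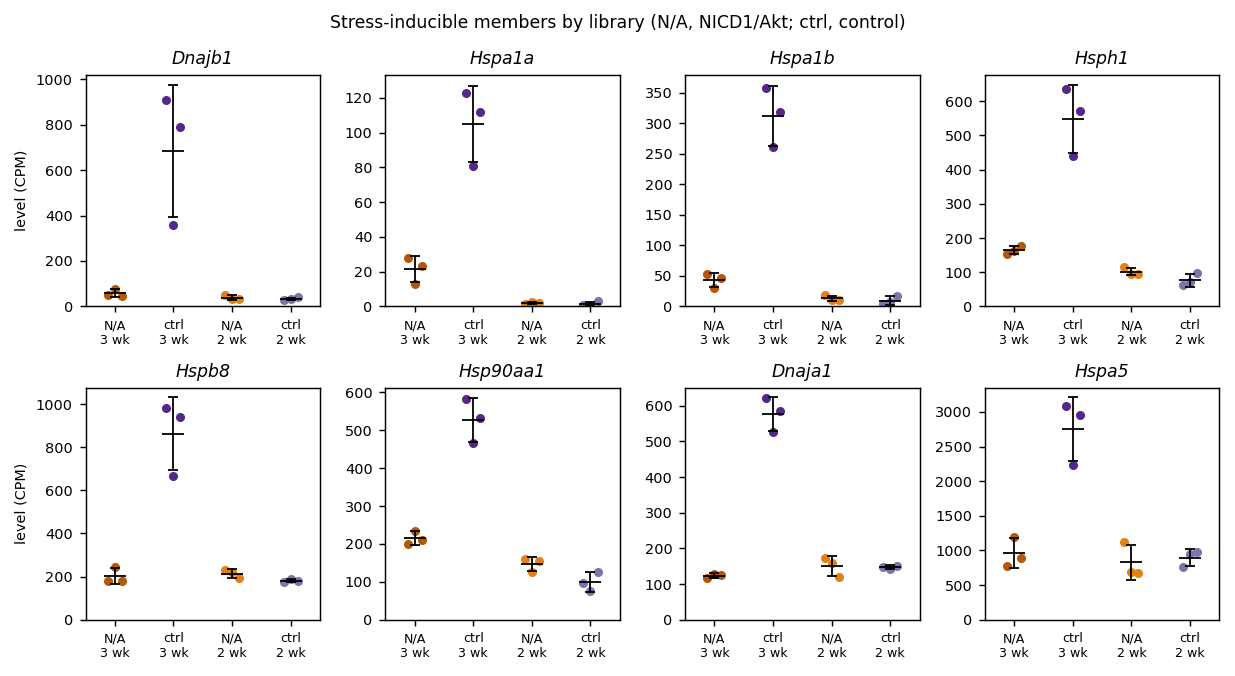
CPM of 8 stress-inducible members in each library (points, 3 per group; black bars, mean and SD; linear axes from 0), with NICD1/Akt livers and controls of 3 weeks on the left and of 2 weeks on the right of each panel. For each gene the 3 late controls lie above the other 9 libraries, and library 11 is the lowest late control.

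The small heat shock proteins, which hold unfolded clients without ATP, were split. Hspb8, which acts with the cochaperone BAG3 in clearing misfolded proteins, had 181, 244 and 178 CPM in NICD1/Akt livers against 981, 668 and 939 CPM in controls at 3 weeks. Early NICD1/Akt livers had 230, 219 and 192 CPM and early controls 176, 188 and 180 CPM. Its log2 fold change was -1.98 at 3 weeks (SE 0.19, adjusted p = 4.08e-05), and late exceeded early controls by 2.25 (SE 0.18, adjusted p = 1.97e-05). Bag3 itself, not a member, had 96.5, 91.0 and 82.8 CPM in NICD1/Akt livers against 313, 257 and 280 CPM in controls at 3 weeks, and 44.9 to 81.2 CPM at 2 weeks. Hspb1 (HSP25 in mouse) was at 13.1, 12.2 and 16.7 CPM against 27.9, 23.3 and 35.8 CPM at 3 weeks (-0.94, adjusted p = 0.00166). Late exceeded early controls by 1.03 (adjusted p = 0.0255), a call lost without late control 10 (adjusted p = 0.0561) or 12 (adjusted p = 0.0939). That call was also lost with library size alone, with upper quartile factors and with the 6 control libraries alone in the fit. Hspb6 was at 8.37, 8.65 and 9.88 CPM against 13.3, 13.1 and 13.5 CPM (-0.45, adjusted p = 0.00915), a sign that turned to 0.25 (adjusted p = 0.112) with library size alone.

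Hspb2, a small heat shock protein known from muscle, had 1.52, 2.36 and 1.07 CPM in NICD1/Akt livers against 0.173, 0.435 and 0 CPM in controls at 3 weeks, a log2 fold change of 3.13 given as a description, since it met the level cutoff in NICD1/Akt libraries only. At 2 weeks it had 0.398, 1.41 and 2.16 CPM in NICD1/Akt livers against 0.200, 0.216 and 0.463 CPM in controls, too low for the test. Hspb2 shares 252 exon bases (30.2% of its exon length) with Cryab on the opposite strand. Cryab, the alpha B crystallin gene, had 56, 61.1 and 65.7 CPM in NICD1/Akt livers against 4.31, 4.18 and 4.58 CPM in controls at 3 weeks, and 21.5, 18.6 and 65.9 CPM against 5.39, 5.19 and 29.7 CPM at 2 weeks. The library kit marks strand, but whether strand was used in counting is not given in the sources used here, so reads of the pair cannot be told apart. Hspb11, which despite its name is a subunit of intraflagellar transport, did not pass the threshold in any comparison (2.92 to 5.46 CPM).

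The mitochondrial chaperonin genes Hspd1 (HSP60) and Hspe1 (HSP10), transcribed from the shared promoter region printed above, moved together. Hspd1 had 220, 209 and 224 CPM in NICD1/Akt livers against 623, 625 and 573 CPM in controls at 3 weeks (log2 -1.36, SE 0.10, adjusted p = 1.02e-05), and Hspe1 was at 57.7, 62.1 and 65.3 CPM against 168, 148 and 178 CPM (-1.30, SE 0.11, adjusted p = 1.57e-05). Late exceeded early controls by 0.91 for Hspd1 (adjusted p = 0.00150) and by 1.17 for Hspe1 (adjusted p = 1.42e-04). The wider mitochondrial group of 10 members had 9 lower and 0 higher at 3 weeks, beside 33.1% of all genes lower. In late against early controls 2 of 10 were higher and 0 lower, a share near the 17.4% of all genes higher. Dnaja3 (TID1) was at 75.5, 64.1 and 71.6 CPM against 160, 152 and 144 CPM at 3 weeks (-0.99, adjusted p = 4.81e-05) and at 142, 126 and 78.7 CPM against 127, 122 and 113 CPM at 2 weeks. Dnajc15 and Dnajc19, J proteins of protein import at the inner membrane, were the DnaJ genes with the smallest p at 2 weeks. Dnajc19 had 20.7, 24.9 and 17.2 CPM in NICD1/Akt livers against 29.8, 31.1 and 26.6 CPM in controls at 2 weeks, a log2 fold change of -0.47 (edgeR unadjusted p = 0.0211, adjusted p = 0.520), and 16.9, 11.5 and 16.4 CPM against 29.8, 27.7 and 33.8 CPM at 3 weeks (-0.91, adjusted p = 0.00102). Dnajc15 was at 20.3, 15.7 and 19.2 CPM against 30.9, 31.8 and 20.2 CPM at 2 weeks (-0.58, unadjusted p = 0.0284). Library 32 was the lowest early control for Dnajc15 and the only one to overlap.

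Among DnaJ proteins, the DNAJA class had 4 of 4 and the DNAJB class 8 of 9 members lower at 3 weeks, while the DNAJC class had 7 higher and 11 lower of 25. Of all genes, 38.9% were higher and 33.1% lower, at a median of 0.06, so the DNAJC class was not far from all genes. The DNAJC median of -0.09 turned to 0.07 with upper quartile scaling and to 0.62 with library size alone. The median of all genes moved to 0.22 and 0.77 in these settings. Dnajb1, the main cytosolic HSP40 partner of inducible HSP70, showed the largest fall of all members at 3 weeks. It had 51.6, 76.7 and 43.9 CPM in NICD1/Akt livers against 907, 357 and 788 CPM in controls, a log2 fold change of -3.46 (SE 0.37, adjusted p = 6.57e-05). At 2 weeks it had 51, 33.7 and 31.1 CPM in NICD1/Akt livers against 29.5, 31.3 and 39.3 CPM in controls. Late exceeded early controls by 4.36 (SE 0.38, adjusted p = 2.86e-05), whereas late and early NICD1/Akt livers differed by 0.57 (adjusted p = 0.217). The late controls differed among themselves, with library 11 at 357 CPM and the others at 788 CPM or more.

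Dnaja1, a farnesylated cytosolic J protein, had 116, 129 and 126 CPM in NICD1/Akt livers against 621, 527 and 584 CPM in controls at 3 weeks (log2 -2.10, SE 0.12, adjusted p = 1.79e-06), with 120 to 173 CPM in the 6 libraries of 2 weeks. Its late controls were close to each other, unlike those of Dnajb1. Dnajb4 was at 49.3, 39.4 and 37.7 CPM against 112, 85.8 and 107 CPM at 3 weeks (-1.15, adjusted p = 1.39e-04), and at 41.2, 36.5 and 35.6 CPM against 47.3, 42.6 and 46.7 CPM at 2 weeks (-0.26, edgeR unadjusted p = 0.0504). Dnaja4 was at 10.5, 8.69 and 11.6 CPM against 27.3, 16.4 and 24.8 CPM at 3 weeks (-1.04, adjusted p = 0.00170), but shares 44.1% of its exon bases with Wdr61 on the opposite strand. Dnajb2, which links HSP70 clients to ubiquitin-dependent degradation, was at 40.3, 41.3 and 43.1 CPM against 102, 85.2 and 96.6 CPM at 3 weeks (-1.07, adjusted p = 2.53e-05). Its higher level in late controls (0.43, adjusted p = 0.0372) was lost on leaving out any of several single libraries, with adjusted p up to 0.119 without late control 10 and 0.114 without library 32. Dnajc21, known in yeast as a cofactor of ribosome assembly, was at 17.2, 16.3 and 16.0 CPM against 33.6, 30.5 and 32.8 CPM at 3 weeks (-0.85, adjusted p = 6.37e-05).

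Of 13 members that reside in the endoplasmic reticulum, 9 were lower and 3 higher in NICD1/Akt livers at 3 weeks, and 7 were higher and 0 lower in late than in early controls. The shares of all genes were 33.1% lower and 38.9% higher at 3 weeks, and 17.4% higher and 20.4% lower in late controls. Dnajb9 (ERdj4), a UPR target that restrains the sensor IRE1, had 85.5, 92.5 and 90.6 CPM in NICD1/Akt livers against 390, 287 and 380 CPM in controls at 3 weeks (log2 -1.86, SE 0.14, adjusted p = 9.04e-06). At 2 weeks it was at 102, 65.1 and 61.0 CPM against 84.1, 138 and 111 CPM, and overlapped through library 33. Dnajc3 (p58IPK), which inhibits the kinase PERK, was at 216, 243 and 247 CPM against 566, 513 and 577 CPM at 3 weeks (-1.11, adjusted p = 4.79e-05). Dnajc25 was at 17.5, 15.7 and 19.1 CPM against 46.3, 40.1 and 40.6 CPM (-1.16, adjusted p = 2.97e-05), and it was also lower in late than in early NICD1/Akt livers (-0.71, adjusted p = 0.0168). Dnajc1 (ERdj1) was at 35.6, 35 and 36.8 CPM against 53.1, 56.8 and 53.1 CPM at 3 weeks (-0.48, adjusted p = 6.27e-04), with 33.4 to 37.1 CPM at 2 weeks. The late controls were the only group of Dnajc1 outside the range of the others, though the sign of its fold change turned to 0.22 (adjusted p = 0.046) with library size alone.

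Against this direction, Dnajc10 (ERdj5), a disulfide reductase that assists degradation of misfolded secretory proteins, was higher in NICD1/Akt livers. It had 124, 144 and 128 CPM in NICD1/Akt livers against 49.3, 46.7 and 54.9 CPM in controls at 3 weeks (log2 1.51, SE 0.11, adjusted p = 6.74e-06), and 42.7, 43.9 and 63.2 CPM against 35.1, 33.2 and 47.9 CPM at 2 weeks. The late NICD1/Akt livers lay above all other libraries, and Dnajc10 was higher in late than in early NICD1/Akt livers by 1.40 (adjusted p = 7.16e-04). Dnajc18 was at 17.7, 17.9 and 20.4 CPM against 11.5, 10.2 and 14.2 CPM at 3 weeks (0.76, adjusted p = 0.00149), and Dnajc16 was at 27.0, 23.6 and 27.1 CPM against 20.1, 20.5 and 20.2 CPM (0.47, adjusted p = 0.00216). Their early groups overlapped.

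The remaining members higher at 3 weeks were DNAJC proteins of other compartments. Dnajc9, a J protein that also escorts histones H3 and H4, had 13.1, 16.9 and 17.1 CPM in NICD1/Akt livers against 3.97, 3.74 and 4.17 CPM in controls at 3 weeks (log2 2.10, SE 0.16, adjusted p = 1.01e-05). Its values at 2 weeks were 6.44, 5.55 and 15.5 CPM against 5.59, 6.27 and 9.27 CPM, with the highest values in libraries 35 and 32. Proliferation genes moved beside it: 7 of 7 were higher at 3 weeks, beside 38.9% of all genes. Their summed level was 307 to 418 CPM in NICD1/Akt livers against 28.1 to 35.5 CPM in controls at 3 weeks. In late against early controls 6 of 7 were lower, at a median of -3.31, beside 20.4% of all genes lower. Dnajc9 differed there by -0.83 (adjusted p = 0.0969). The part of proliferation genes in the Dnajc9 differences was not tested. Dnajc27, which carries a small GTPase domain, was at 2.42, 3.53 and 2.52 CPM against 1.55, 0.522 and 0.667 CPM (1.74, adjusted p = 0.00379). Dnajc12, a partner of the aromatic amino acid hydroxylases, was at 6.29, 8.95 and 10.2 CPM against 5.0, 4.87 and 3.92 CPM (1.00, adjusted p = 0.00337). Dnajc8 was the smallest of these changes (0.31, adjusted p = 0.0190).

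**Figure D3:**
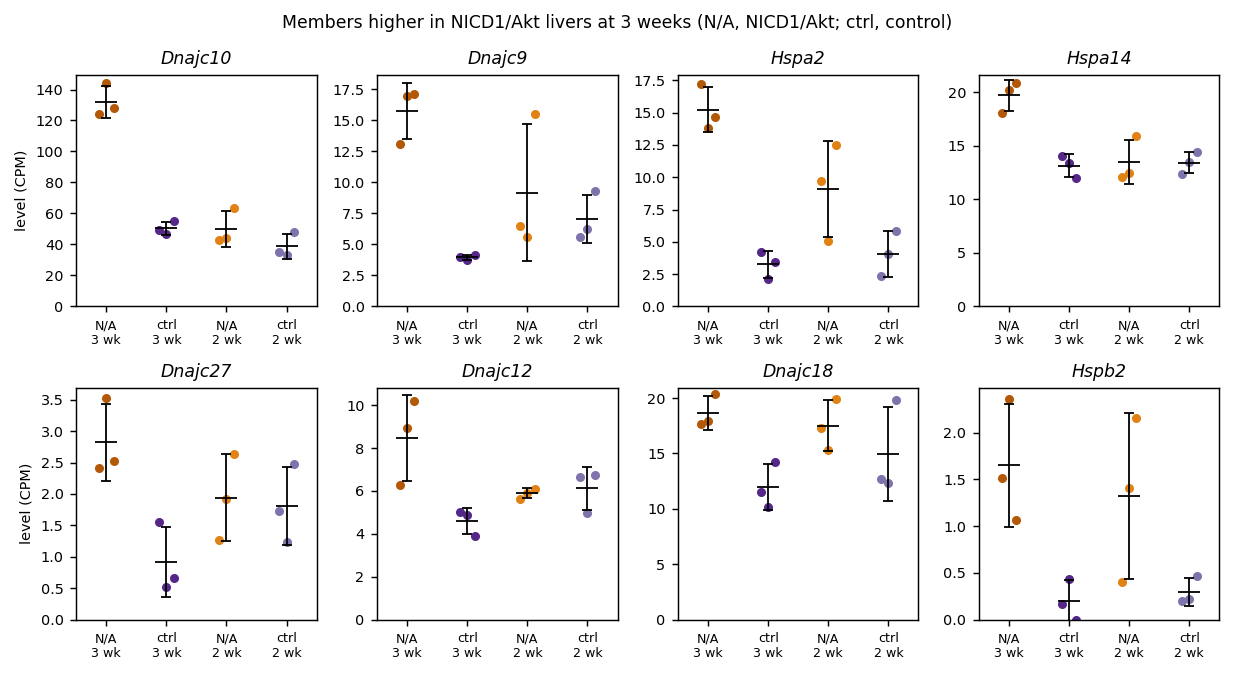
CPM of 8 members that were higher in NICD1/Akt livers at 3 weeks (points, libraries; black bars, mean and SD; linear axes from 0, below which the lower bar of Hspb2 is not drawn), with the groups of 3 weeks on the left and of 2 weeks on the right. Dnajc10, Hspa14 and Hspa2 have all 3 late NICD1/Akt libraries above the other 9, and Hspa2 is at 5.10 to 12.5 CPM in NICD1/Akt livers of 2 weeks.

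The remaining 10 members passed the threshold in neither direction at 3 weeks. They were Dnajb14, Dnajc2, Dnajc7, Dnajc13, Dnajc14, Dnajc17, Dnajc24, Dnajc28, Hspa12a and Hspb11. Of these, Dnajc2, the J protein that pairs with Hspa14 at the ribosome, had 23.3, 25.5 and 23.1 CPM in NICD1/Akt livers against 27.2, 25 and 27.5 CPM in controls at 3 weeks, and 16.2 to 21.4 CPM in the 6 libraries of 2 weeks. Dnajc13, an endosomal J protein, was at 58.6, 50.1 and 54.8 CPM against 53.8, 63.2 and 60.8 CPM at 3 weeks, and at 38.6 to 47.8 CPM at 2 weeks. Both were higher at 3 than at 2 weeks in NICD1/Akt livers (0.35, adjusted p = 0.0406 for Dnajc2 and 0.37, adjusted p = 0.0334 for Dnajc13) and in controls (0.41, adjusted p = 0.0165 and 0.47, adjusted p = 0.00844 in the same order of genes), though without library 32 the control difference of Dnajc2 no longer passed (0.38, adjusted p = 0.0591).

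At 2 weeks no member passed the adjusted threshold, and neither did any other gene (0% of 13041 tested). At an unadjusted p under 0.05, edgeR gave 3 members higher (Hspa4l, Hspa2 and Hsp90aa1) and 2 lower (Dnajc19 and Dnajc15) of 60 tested, beside 4.90% of genes higher and 3.69% lower. DESeq2 called 0 members at the adjusted threshold, and 13 genes higher and 14 lower. Leaving out library 32 or library 35 gave 0 members called as well.

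The change in effect between stages was tested directly, as the log2 fold change of NICD1/Akt livers over controls at 3 weeks minus that at 2 weeks. It was lower for 33 members and higher for 4 (Dnajc9, Dnajc10, Dnajc12 and Hspa14), beside 15.8% of 13829 genes lower and 15.0% higher, with a median of -0.59 over members and -0.02 over genes. The largest differences were -3.78 for Dnajb1 (adjusted p = 0.00161), -3.37 for Hspa1b (adjusted p = 0.00598), -2.86 for Hspa1a (adjusted p = 0.0148), -2.34 for Hspb8 (adjusted p = 9.16e-04) and -2.25 for Dnaja1 (adjusted p = 4.23e-04). Without library 32, 30 were lower and 1 higher: the calls of Dnajc9, Dnajc12 and Hspa14 (higher) and of Dnaja4, Dnajc22 and Hsp90b1 (lower) were lost. A single higher call also remained without library 33, 34, 2, 3 or 12, and 2 without library 10 or 11. Without library 35, 35 members were lower and 5 higher, beside 3494 genes lower and 3307 higher of 13948. Without library 32 the first 3 of the large falls were -3.90 for Dnajb1, -4.18 for Hspa1b and -3.95 for Hspa1a. Within NICD1/Akt livers, 8 members were higher and 10 lower at 3 than at 2 weeks, beside 11.1% of genes higher and 17.4% lower. These counts rested on single libraries: 4 higher and 2 lower remained without library 33, the same numbers without library 34, and 17 were lower without library 35. Hspa1a, Hspa1b, Hsph1 and Hspa4l were among the 8, with Dnajc2, Dnajc10, Dnajc13 and Hspa14.

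Since the late controls carried the high levels, the late NICD1/Akt livers were also set against the early controls, an alternative chosen after the values were seen and one in which stage and treatment differ together. Of the 40 members lower against late controls, 17 were lower, 5 were higher and 18 passed in neither direction against early controls. The 5 that turned were Hspa1a (log2 4.0, adjusted p = 3.48e-04), Hspa1b (2.22, adjusted p = 0.00287), Hsp90aa1 (1.11, adjusted p = 0.00114), Hsph1 (1.09, adjusted p = 0.00128) and Hspa4l (0.72, adjusted p = 7.00e-04). Dnajb1 was at 0.78 (adjusted p = 0.0697), and Hspa5, Hspb8, Dnaja1, Dnajb9, Hsp90ab1 and Hsp90b1 lay between -0.31 and 0.18 without passing. The 17 that were lower against either control group included Hspa8, Hspa9, Hspd1, Dnaja2, Dnaja3, Dnajb2, Dnajb6, Dnajb12, Hspb6 and 8 DNAJC members, among them Dnajc15, Dnajc19 and Dnajc30. Of the 11 members higher against late controls, 5 were also higher against early ones, namely Hspa2, Hspa14, Dnajc9, Dnajc10 and Hspb2, the last chosen through NICD1/Akt livers. With early controls 30 and 31 alone, 17 of the 40 were lower, 6 were higher, with Dnajb5 (0.51, adjusted p = 0.0377) added, and 6 of the 11 were higher. Among the lower ones, Hspb6 was lost (-0.39, adjusted p = 0.0997) and Hspe1 was added (-0.37, adjusted p = 0.0471). Over all members, libraries 30 and 31 gave 13 higher and 20 lower, beside 3923 genes higher and 4008 lower of 14069.

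**Figure D4:**
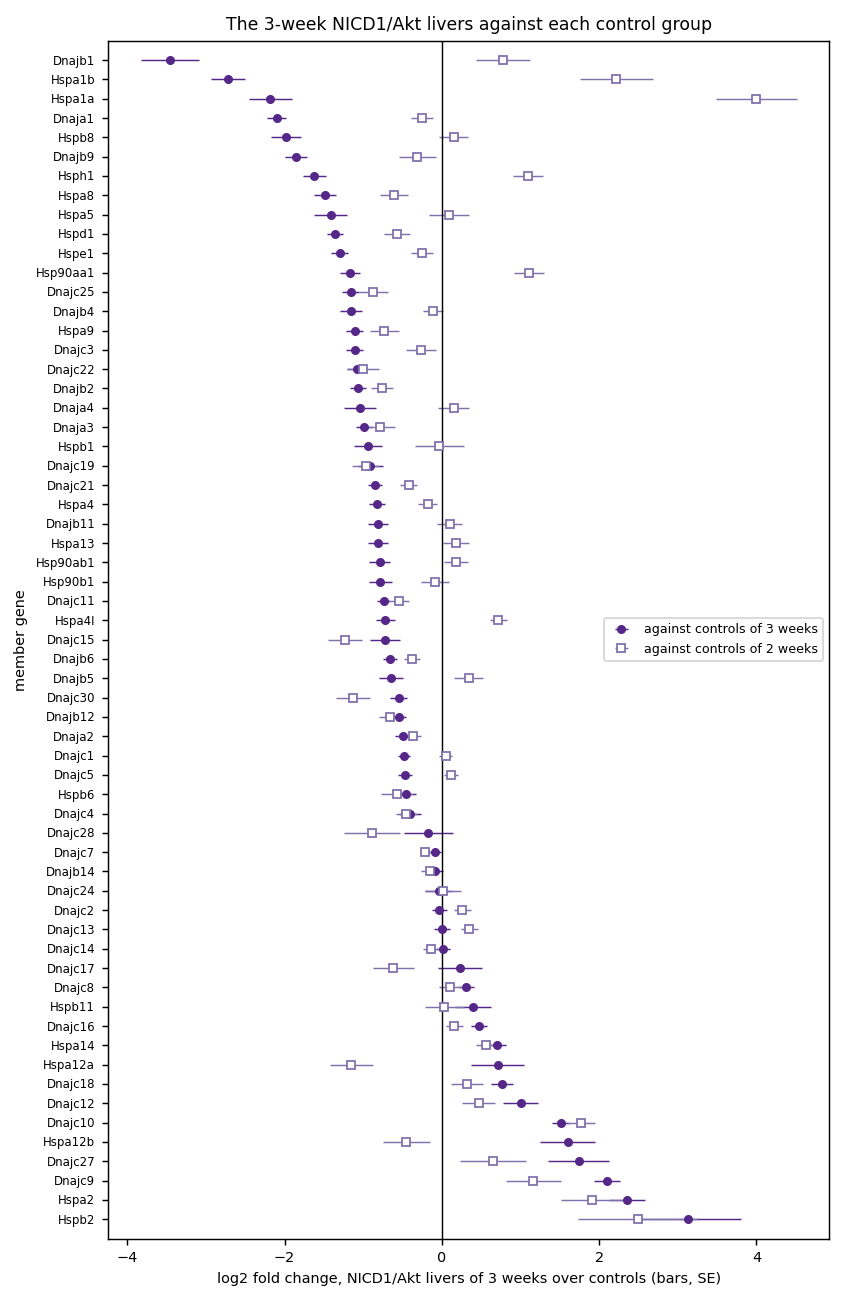
Log2 fold change of late NICD1/Akt livers over late controls (filled circles) and over early controls (open squares) for the 61 members, with SE as bars, ordered by the first. Dnajb1, Hspa1a, Hspa1b, Hsph1, Hsp90aa1 and Hspa4l lie on opposite sides of 0, while Dnajc10, Dnajc9, Hspa2 and Hspb2 stay on the right.

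Members known as HSF1 targets moved one way in the comparisons with late controls, which share those libraries. At 2 weeks none of them passed, and in the other comparisons calls were fewer and went both ways. Of 13 (Hspa1a, Hspa1b, Hspa8, Hsph1, Hspa4l, Hsp90aa1, Hsp90ab1, Hspb1, Hspd1, Hspe1, Dnaja1, Dnajb1 and Dnajb4), 13 were lower in NICD1/Akt livers at 3 weeks, at a median of -1.36, and 13 were higher in late than in early controls, at a median of 1.56. Of all genes, 38.9% were higher and 33.1% lower at 3 weeks (median 0.06). In late controls 17.4% of all genes were higher and 20.4% lower (median -0.10). Their summed level was 2540 to 2748 CPM in NICD1/Akt livers against 6404 to 8234 CPM in controls at 3 weeks, and 2584 to 3354 CPM against 2537 to 2780 CPM at 2 weeks. Within NICD1/Akt livers, 4 of the 13 were higher at 3 than at 2 weeks (Hspa1a, Hspa1b, Hspa4l and Hsph1) and 1 was lower (Hspa8), beside 11.1% of all genes higher and 17.4% lower. Against early controls, late NICD1/Akt livers had 5 of them higher, as named above, and Hspa8 and Hspd1 lower. With library size alone 10 of the 13 were lower at 3 weeks and 12 higher in late controls. The list was written with earlier results of these data known and is a description. Of the 14 members with the 2-unit motif in the promoter window, 12 were lower and 2 higher at 3 weeks and 11 were higher in late controls. Of the 34 members with a window but no match, 19 were lower and 6 higher at 3 weeks and 13 were higher in late controls. Hspa8, Hsp90aa1 and Hsp90ab1 had no window and enter neither count. The 4 members with the 3-unit motif and the 3 with the endoplasmic reticulum stress element were all lower at 3 weeks and all higher in late controls.

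Genes that work with these chaperones but lie outside the symbol rule were counted in the same way, beside 38.9% of all genes higher and 33.1% lower at 3 weeks and 17.4% higher and 20.4% lower in late controls. Of 17 genes of the HSF1 network, 2 were higher and 9 lower in NICD1/Akt livers at 3 weeks and 11 were higher and 1 lower (Hsf2) in late than in early controls. Hsf1 itself was at 25.2, 27.0 and 28.8 CPM against 33.7, 36.4 and 32 CPM at 3 weeks (log2 -0.22, adjusted p = 0.0659). Hsf1 passed the threshold as higher in late than in early controls and as lower for the difference between effects. Of 25 cochaperones, 4 were higher and 14 lower at 3 weeks, and 12 were higher and 2 lower in late controls. Stip1, which bridges HSP70 and HSP90, was at 103, 120 and 118 CPM against 246, 206 and 239 CPM at 3 weeks (-0.90, adjusted p = 1.61e-04). Of 23 UPR genes outside the family, 3 were higher (Asns, Eif2ak3 and Trib3) and 19 lower at 3 weeks, and 17 were higher and 1 lower (Trib3) in late controls. Xbp1, a transcription factor of the UPR, was at 169, 208 and 187 CPM against 865, 692 and 843 CPM at 3 weeks (-1.97, adjusted p = 6.78e-06), and at 151 to 202 CPM at 2 weeks. Of 14 subunits of the cytosolic chaperonin TRiC and of prefoldin, 1 was higher and 7 lower at 3 weeks, and 8 were higher in late controls.

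Other gene groups were counted as well. At 3 weeks 38.9% of all genes were higher and 33.1% lower, and in late controls 17.4% were higher and 20.4% lower. Of 14 immediate early genes, which answer acute stimuli and tissue handling within minutes, 2 were higher and 9 lower in NICD1/Akt livers at 3 weeks, and 12 were higher and 0 lower in late than in early controls, at a median of 2.17. Their summed level was 561 to 778 CPM in NICD1/Akt livers against 3319 to 3599 CPM in controls at 3 weeks, and 441 to 614 CPM against 451 to 600 CPM at 2 weeks. Of 13 circadian clock genes, 3 were higher and 6 lower in NICD1/Akt livers at 3 weeks, and 2 were higher and 1 lower in late than in early controls, at a median of 0.02. The cold-inducible genes Cirbp and Rbm3 were both higher in NICD1/Akt livers at 3 weeks (median 1.15), and Cirbp was lower in late than in early controls. Hepatocyte markers were lower at 3 weeks, 7 of 7, with a summed level of 27274 to 39082 CPM in NICD1/Akt livers against 111703 to 117158 CPM in controls. In controls of 2 weeks their sum was 97279 to 169882 CPM, and in late against early controls 2 of 7 (Fgb and Serpina1a) were higher and 0 lower, at a median of 0.26. Cholangiocyte markers were higher at 3 weeks, 5 of 5, at 3371 to 3958 CPM against 73.3 to 116 CPM. Of the remaining markers, 5 of 6 stellate cell and fibroblast genes were higher, macrophage genes were split 3 and 3, 1 endothelial gene was higher and 1 lower of 4, 4 of 4 erythroid genes were lower, 1 T and B cell gene could be tested and did not pass, and no muscle marker was high enough for the test. In late against early controls, 4 of 6 stellate cell and fibroblast genes and 4 of 6 macrophage genes were lower, at medians of -2.26 and -0.79. There 1 of 5 cholangiocyte genes was lower (Spp1), and 2 of 4 erythroid genes were higher. The part of cell composition, of handling and of sex in the chaperone levels was not tested.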

How the data were processed

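Liver RNA of NICD1/Akt and control mice was sequenced in 12 libraries, with groups and replicate numbers taken from the sample labels. The deposited files, 1 for early and 1 for late livers, hold raw counts as whole numbers, made by the authors. For the steps before, the methods give STAR with mm10 and counting by HTSeq, but per the submitters' notes the build was GRCm39 and the tools were STAR 2.7 with Subread 2.0.6, so the origin of the counts was not settled. How reads that map to several genes were treated is not given in the sources used here. Symbols came from GENCODE M21 by gene ID for 21573 of 21807 IDs, and no member shared its symbol with a second ID.

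CPM, log2 fold changes and p-values came from edgeR 4.0.16 under R 4.3.3 (TMM, filterByExpr, glmQLFit and glmQLFTest, Benjamini-Hochberg adjustment over all genes tested, threshold 0.05), and p-values not credited otherwise belong to this test. The effects at 3 and at 2 weeks were fitted on 6 libraries each. The comparisons of 3 with 2 weeks and the difference between effects used 12 libraries in 4 groups. SE is the size of the log2 fold change divided by the square root of F. The tests were checked on simulated counts with known changes.

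The members and all lists were chosen with earlier results of these data known. Genes named with values were the heat shock proteins and, of DnaJ members, Dnajb1, the 6 that rose and the 6 that fell most at 3 weeks, the 4 with the smallest p at 2 weeks, the 4 largest differences between control groups and up to 6 with the smallest p for the difference between effects. Dnaja2, Dnaja3, Dnajc2, Dnajc8 and Dnajc13 and the genes outside the family were chosen after their values were seen. Alternatives were the likelihood ratio test of edgeR, DESeq2 1.42.0, other scaling, no filter on low counts, all 12 or 6 libraries in a fit, all 6 controls and leaving out each library; the comparisons with early controls were added after seeing the data. No pair of replicates was a repeat deposit (chi-square per gene 4.96 to 136).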

Additional observations from a re-analysis of the deposited data

Results flagged for a closer look

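The effect of NICD1/Akt differed between the stages for 37 members, as tested by the contrast of the log2 fold change at 3 weeks minus that at 2 weeks (edgeR quasi-likelihood test, adjusted p under 0.05), 33 lower and 4 higher. Among the named genes, the difference was -3.78 for Dnajb1, -3.37 for Hspa1b, -2.86 for Hspa1a, -2.34 for Hspb8, -2.25 for Dnaja1, -2.14 for Hsph1, -1.89 for Hspa8 and -1.85 for Hsp90aa1. It was -1.43 for Dnajb9, -1.41 for Hspa5, -1.24 for Hspd1, -1.21 for Hspe1, -1.19 for Dnajc3, -1.14 for Hspa4l, -1.12 for Dnajc25, -1.05 for Hsp90ab1, -1.01 for Hspa9 and -1.0 for Dnajb4. Smaller ones were -0.95 for Dnajb2, -0.93 for Dnaja4, -0.91 for Hspa4, -0.88 for Hsp90b1, -0.88 for Hspa13, -0.87 for Dnajc21 and -0.65 for Dnajc1. The 4 higher ones were 1.59 for Dnajc9, 1.02 for Dnajc10, 0.94 for Dnajc12 and 0.57 for Hspa14. Without library 32 the calls of Dnajc9, Dnajc12, Hspa14, Dnaja4, Dnajc22 and Hsp90b1 were lost, and 30 lower and 1 higher (Dnajc10) remained. The late controls were set apart from the early ones for most of these genes, as their levels show, and stage, sex as read from Ddx3y and the handling of the groups cannot be told apart.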

How the results depend on the processing

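The counts at 3 weeks (11 members higher, 40 lower) were within 1.5 times of these under DESeq2, edgeR's likelihood ratio test, upper quartile scaling, no filter on low counts and all 12 libraries in the fit, and stayed at 10 to 11 and 39 to 40 on leaving out single libraries. Library size alone gave 21 higher and 19 lower at 3 weeks, turning Dnajc1 to 0.22 and Hspb6 to 0.25, gave 20 higher and 0 lower within NICD1/Akt livers, and gave 8 higher and 9 lower for the difference between effects; it leaves out the composition factors, which ran from 0.781 to 1.487. All 6 controls gave 6 higher and 19 lower, beside 3326 genes higher and 3498 lower of 13600. The controls of 2 weeks, added after seeing the data, gave 19 lower and turned Dnaja4 (0.15), Dnajb1 (0.78), Dnajc1 (0.05), Hsp90aa1 (1.11), Hsp90ab1 (0.18), Hspa12a (-1.15), Hspa12b (-0.45), Hspa13 (0.18), Hspa1a (4.0), Hspa1b (2.22), Hspa4l (0.72), Hspa5 (0.09), Hspb8 (0.15) and Hsph1 (1.09), and of members outside the named genes Dnajb5 (0.34), Dnajb11 (0.10), Dnajc5 (0.12) and Dnajc13 (0.35). Early controls 30 and 31 alone, also added, gave 20 lower and turned Dnaja4 (0.20), Dnajb1 (0.91), Dnajc1 (0.05), Hsp90aa1 (1.31), Hsp90ab1 (0.18), Hspa12a (-1.17), Hspa12b (-0.44), Hspa13 (0.23), Hspa1a (5.08), Hspa1b (3.04), Hspa4l (0.68), Hspa5 (0.15), Hspb1 (0.28), Hspb8 (0.13) and Hsph1 (1.30), with Dnajb5 (0.51), Dnajb11 (0.23), Dnajc5 (0.15) and Dnajc13 (0.39). Between late and early controls, upper quartile factors gave 5 lower in place of 2, and leaving out single libraries gave 27 to 36 higher and 2 to 4 lower, the 4 without library 32 or 35. Within NICD1/Akt livers, their 6 libraries alone gave 4 higher and 2 lower, and single libraries left out gave 4 to 10 higher and 2 to 17 lower. For the difference between effects, single libraries left out gave 1 to 5 higher and 27 to 35 lower. The cause was not tested where none is given. At 2 weeks no named gene passed in any setting, so all 480 comparisons of named genes with their alternatives counted as unchanged by the rule used. Signs still turned there for some genes, as for Dnajb1 (-0.03 to 0.38), Dnaja1 (-0.07 to 0.21) and Dnajc9 (-0.24 to 0.70). At 3 weeks 524 of 615 such comparisons kept their direction or their side of the threshold, 56 lost and 4 gained a call and 31 turned. No paired analysis was possible because the groups share no replicate number. Depth limits Hspa1a at 2 weeks, Hspb2, Hspa12b and Dnajc27, which had few reads.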
